A study of Saccharomyces cerevisiae with 4 samples.

Results

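The genes described here encode 41 subunits of the yeast chromatin remodelers INO80, SWI/SNF, RSC, ISWI and CHD1. They were taken by gene symbol from a table of 7126 genes of budding yeast (Saccharomyces cerevisiae), and all 41 were found. By complex they comprise 14 genes of INO80, 9 of SWI/SNF, 11 of RSC, 6 of the ISWI remodelers and CHD1 itself. Subunits of the SWR1 remodeler were listed apart, although ARP4, RVB1 and RVB2, placed here under INO80, also belong to SWR1, and ARP7 and ARP9, placed under SWI/SNF, also belong to RSC. TAF14, likewise placed under INO80, carries a SWI/SNF term too. The series compared poly(A) RNA of a T4V mutant, 2 libraries, with that of wild type (WT), 2 libraries. T4V stands for valine in place of threonine 4 in the repeated heptad that makes up the C-terminal domain of the largest RNA polymerase II subunit. Strain background, medium and growth phase, and whether the replicates came from separate cultures, are not given in the sources used here, so p-values measure the spread between these libraries only. The series title ties threonine 4 to chromatin remodelling through the histone variant Htz1.

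Remodelers use the energy of ATP to slide, eject or exchange nucleosomes. Each has a catalytic ATPase of the Snf2 family, and all but Chd1 work with partner subunits that bind nucleosomes, DNA or other proteins. In yeast, SWI/SNF and RSC open promoters, the ISWI enzymes and Chd1 space nucleosomes over genes, and INO80 slides nucleosomes and acts in the turnover of Htz1.

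Libraries held 3355000 and 4261000 reads for T4V, against 4068000 and 3655000 for WT, as recovered from the steps of the deposited values. RPKM counts reads scaled by gene length and by library size, so levels can be compared between genes. The 41 genes took 16431 and 20956 reads in the T4V libraries, against 20693 and 18946 in the WT libraries. Their share of the library was 0.490% and 0.492% in T4V, against 0.509% and 0.518% in WT. No member was near the detection limit, since the fewest reads of any of them in a library were 63 (IES4). RPO21, the gene of the altered polymerase subunit, had 50.8 and 54.1 RPKM in T4V libraries, against 51.6 and 53.4 RPKM in WT libraries. An expression value cannot reveal the altered codons, so each library's genotype is known from its label alone. In bulk RNA, fewer cells with a transcript and less of it per cell cannot be told apart. The 6 markers of mating type a summed to 2738 and 2745 RPKM in T4V libraries, against 2457 and 2202 RPKM in WT libraries. MFA2 made up most of that sum, while MFA1, another a-factor gene, had 183 and 169 RPKM in T4V, against 57.6 and 51.8 RPKM in WT, and AGA2, an agglutinin gene, 175 and 188 RPKM in T4V, against 115 and 119 RPKM in WT. The 4 alpha markers summed to 16.7 and 17.1 RPKM in T4V, against 13.1 and 14.8 RPKM in WT, and 7 meiotic genes to 28.1 and 31.3 RPKM in T4V, against 28.1 and 23.1 RPKM in WT. The part of such differences in the results below was not tested.

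Most remodeler genes had a level in the mutant within 1.5-fold of that in WT. Of the 41 members, 1 fell and none rose at a Benjamini-Hochberg adjusted p under 0.05, where genes past that threshold are here said to be called. The same limma fit called 17.9% of the 5935 genes it tested, which makes 1063 genes, with 692 (11.7%) above WT and 371 (6.25%) below. That background rests on all 4 libraries: limma called fewer genes with any 1 of them left out, and how many fewer depended on the filter. At an unadjusted p under 0.05 there were 5 members, all with a lower mean in T4V, against 33.6% of all genes. The 95% interval of the log2 fold change lay within 1.5-fold either way for 37 of 41 members, against 60.5% of all genes. It lay within 2-fold for all 41 members, against 83.2% of all genes. All genes include many of lower level than any member. Of the 4218 genes with a mean RPKM within the range of the members, 70.4% lay within 1.5-fold and 3931 genes within 2-fold. The median size of change, ignoring sign, was 0.10 on the log2(RPKM + 1) scale among members and 0.20 among all genes tested. It was 0.18 among genes within the members' range of level. Median differences between the single libraries of a genotype were 0.12 for T4V and 0.12 for WT among members. The change between genotypes is taken from means of 2 libraries, which vary less than single libraries, so these sizes are not directly comparable.

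Small differences leaned downward. The median log2 fold change, T4V minus WT, was -0.04 over the 41 members and 0.07 over all genes tested, and 34 of 41 members lay below the median of all genes. In 14 members both T4V libraries lay below both WT libraries, or 34.1%, against 23.4% of all genes. In 2 members, ARP5 and ARP7, both T4V libraries lay above both WT libraries, or 4.88%, against 38.6% of all genes. The other 25 members overlapped between genotypes. After median-of-ratios, quantile or rescaled-total scaling, 8, 8 and 10 members had a positive value, in place of 17, but the median of all genes moved with them. The members' median lay below that of all genes by 0.11, 0.08 and 0.11 under those scalings in turn, against 0.11 without them. Voom on the recovered reads called 5 members, all lower (ARP4, ARP8, IOC3, CHD1 and STH1), where it called 28.2% of all genes.

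**Figure D1:**
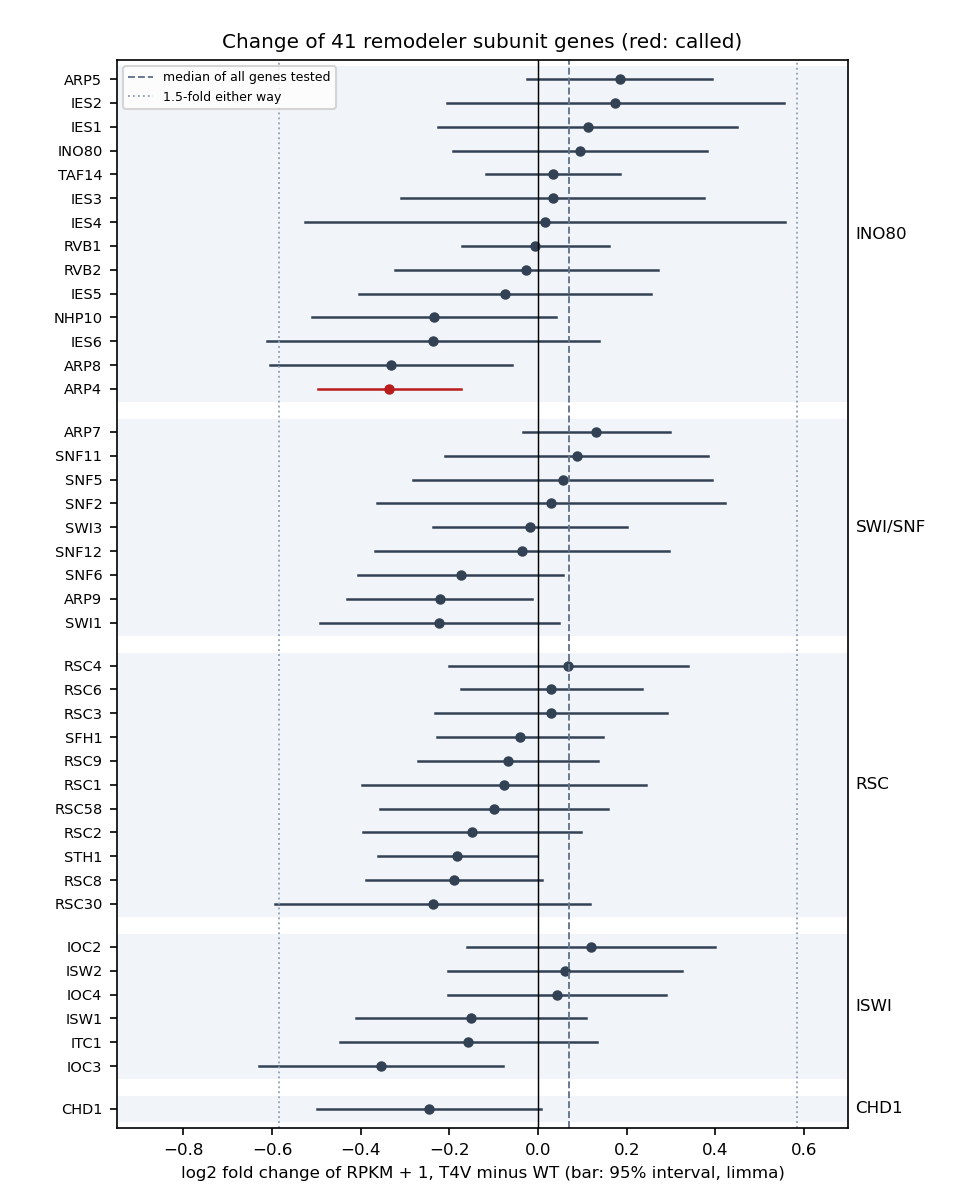
Log2 fold change of RPKM + 1 (T4V minus WT, horizontal axis) of the 41 subunit genes, grouped by complex, with points for limma estimates and bars for 95% intervals. Only ARP4, in red, is called, and the intervals of 37 genes stay within the dotted lines at 1.5-fold either way.

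INO80 joins its ATPase to an actin-related module (Arp8, Arp4 and actin), an Arp5 module with Ies6 and Ies2, the Rvb1 and Rvb2 ATPases and a module around Nhp10. INO80, the gene of the catalytic subunit, had 32.6 and 35.5 RPKM in T4V libraries, against 29.6 and 34.2 RPKM in WT libraries. The genotypes overlapped, and the log2 fold change was 0.09 with a 95% interval of -0.19 to 0.38. INO80 overlaps a gene on the opposite strand, YGL149W, and whether the authors counted reads by strand is not given in the sources used here.

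Of the 14 INO80 genes 1 fell, none rose and 13 did not pass the test, and their median log2 fold change was 0.00. RVB1 and RVB2, whose products are AAA+ ATPases, differed little between genotypes. RVB1 had 350.3 and 331 RPKM in T4V libraries, against 330.1 and 354 RPKM in WT libraries. RVB2 had 47.4 and 54.5 RPKM in T4V libraries, against 56.6 and 47.3 RPKM in WT libraries. RVB1 was the most abundant of all 41 members, and its interval, -0.17 to 0.16, was among the narrowest. TAF14, which encodes a reader of acylated histones shared with other transcription complexes, came next at 309 and 324 RPKM in T4V, against 311 and 307 RPKM in WT.

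Several small subunit genes varied between libraries of a genotype. IES4, the shortest member at 351 bases, had 53.5 and 64.2 RPKM in T4V libraries, against 44.8 and 74.8 RPKM in WT libraries. That spread gave it a wide interval, -0.53 to 0.56, around a log2 fold change of 0.02. IES2, the lowest INO80 gene, had 29.4 and 30.7 RPKM in T4V libraries, against 30.9 and 22.7 RPKM in WT libraries. IES6, whose product works beside Arp5, had 39.9 and 35.6 RPKM in T4V libraries, against 38.3 and 51.9 RPKM in WT libraries. For each of these genes the genotypes overlapped.

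Genes of the Nhp10 module went in no shared direction. NHP10, which encodes an HMG-box protein, had 43.8 and 36.8 RPKM in T4V libraries, both below the 46.6 and 48.3 RPKM in WT libraries (log2 fold change -0.23, limma adjusted p = 0.209). IES1, IES3 and IES5 had log2 fold changes of 0.11, 0.03 and -0.07, and each overlapped between genotypes.

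ARP4 was the member that fell. It encodes an actin-related protein that INO80 shares with SWR1 and with the histone acetyltransferase NuA4, and the annotation lists it in all of these complexes. ARP4 (YJL081C, chromosome X, 283802 to 285271, minus strand, R64 assembly) had 164 and 161 RPKM in T4V libraries, against 201 and 209 RPKM in WT libraries. All 4 values rested on many reads, 808 and 1006 in T4V against 1201 and 1123 in WT, and the genotypes did not overlap. The mean was 162 ± 2.27 RPKM in T4V and 205 ± 5.79 RPKM in WT (SD, n = 2 each). By limma the log2 difference was -0.34 ± 0.07 (SE), with an adjusted p of 0.0190. The value stayed between -0.42 and -0.31 under the 18 alternatives run, but the call was lost in several. Among these were the fits without T4V library A, T4V library B or WT library B. The log2 fold change was -0.35 without T4V library A and -0.32 without T4V library B. It was -0.36 without WT library A and -0.31 without WT library B. With all 4 libraries, the adjusted p was 0.000711 with voom and 0.0103 with limma on RPKM after median-of-ratios scaling. A limma fit with no variance trend gave an adjusted p of 0.0868, so the call was lost there too.

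The other actin-related subunits also had genotypes that did not overlap, a pattern picked out after the values were seen. Such separation was common: over all genes tested, both T4V libraries lay above both WT libraries in 38.6%, and below them in 23.4%. ARP8, another INO80 subunit, had 26.4 and 24.7 RPKM in T4V libraries, against 31.0 and 33.8 RPKM in WT libraries, and its log2 fold change was -0.33 (adjusted p = 0.0961 by limma). ARP9, shared by SWI/SNF and RSC, had 50.1 and 49.5 RPKM in T4V libraries, against 57.4 and 59.1 RPKM in WT libraries, and its log2 fold change was -0.22 (adjusted p = 0.130 by limma). These genes were low in both T4V libraries.

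ARP5 and ARP7 lay the other way. ARP5, of INO80, had 61.4 and 61.2 RPKM in T4V libraries, against 55.3 and 52.4 RPKM in WT libraries, and its log2 fold change was 0.18 (adjusted p = 0.196 by limma). ARP7, the partner of ARP9 in SWI/SNF and RSC, had 170.6 and 163 RPKM in T4V libraries, against 154 and 151 RPKM in WT libraries, and its log2 fold change was 0.13 (adjusted p = 0.239 by limma). None of these 4 genes passed the test. Each kept its sign and its separation of genotypes under each scaling tried, although ARP7 came down to 0.05 after quantile normalization. Leaving out a library cannot undo such a separation, so the fits with a library left out do not bear on it. ACT1, the gene of actin, which is itself a subunit of INO80, had 4175 and 4395 RPKM in T4V libraries, against 4005 and 3898 RPKM in WT libraries (log2 fold change 0.12, limma adjusted p = 0.210). ARP6, of SWR1, had 19.5 and 19.2 RPKM in T4V libraries, against 21.3 and 20.2 RPKM in WT libraries.

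**Figure D2:**
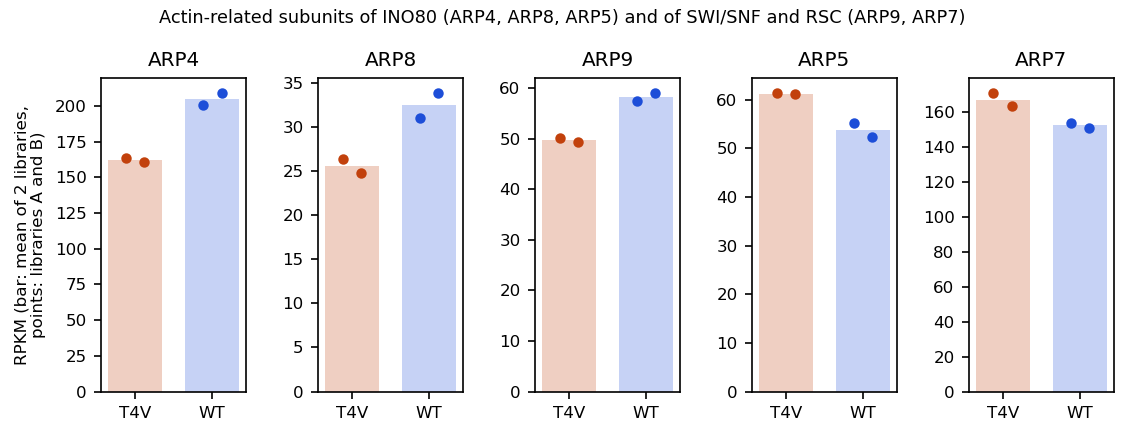
RPKM (vertical axes, from 0, each with its own scale) of the 5 actin-related remodeler subunit genes in T4V and WT, with points for libraries A and B and bars for their mean. ARP4, ARP8 and ARP9 are lower in both T4V libraries than in both WT libraries, and ARP5 and ARP7 are higher, while ARP4 alone is called.

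The sequences upstream of these actin-related genes are shown because their transcripts stood apart between genotypes in opposite directions. Each is 200 bases long, runs 5′ to 3′ on the strand of the gene and covers bases 250 to 51 before the start codon in the RefSeq R64 sequence. Capitals mark matches, on either strand, to TTACCCG (Reb1), CGTNNNNNNTGA (Abf1), CGCGC (Rsc3), TATAAA (the TATA box), CACGTG (Pho4) or AAAAAAA (a poly(dA:dT) tract). Reb1 and Abf1 are general regulatory factors that help keep promoters free of nucleosomes, and Rsc3 is the DNA-binding subunit of RSC. The first bases of the ARP9 window lie in the open reading frame YMR030W-A.
ARP4 (chrX:285322-285521, minus strand): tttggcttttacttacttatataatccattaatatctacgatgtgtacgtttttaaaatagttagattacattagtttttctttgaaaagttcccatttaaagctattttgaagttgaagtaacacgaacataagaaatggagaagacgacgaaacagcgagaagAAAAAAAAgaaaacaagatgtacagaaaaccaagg
ARP8 (chrXV:592638-592837, minus strand): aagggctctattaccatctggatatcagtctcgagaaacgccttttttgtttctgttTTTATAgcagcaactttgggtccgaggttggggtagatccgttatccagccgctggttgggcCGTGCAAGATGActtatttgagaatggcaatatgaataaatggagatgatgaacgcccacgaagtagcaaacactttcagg
ARP9 (chrXIII:337538-337737, plus strand): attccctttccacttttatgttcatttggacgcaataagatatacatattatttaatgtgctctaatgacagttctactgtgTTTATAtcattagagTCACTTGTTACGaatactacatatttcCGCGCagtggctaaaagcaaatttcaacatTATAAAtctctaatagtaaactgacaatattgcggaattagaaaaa
ARP5 (chrXIV:514986-515185, minus strand): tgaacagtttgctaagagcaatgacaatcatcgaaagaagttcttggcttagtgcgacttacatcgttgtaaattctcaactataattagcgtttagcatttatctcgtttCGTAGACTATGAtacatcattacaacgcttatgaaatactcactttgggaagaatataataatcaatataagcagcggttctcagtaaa
ARP7 (chrXVI:639275-639474, plus strand): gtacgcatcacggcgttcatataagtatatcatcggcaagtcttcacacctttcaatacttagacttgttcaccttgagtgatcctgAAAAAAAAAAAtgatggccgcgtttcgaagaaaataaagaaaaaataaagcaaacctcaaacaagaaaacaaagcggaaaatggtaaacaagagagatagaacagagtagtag

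Letters matching Abf1 stood upstream of ARP8 and ARP9, which had lower values in T4V, and of ARP5, which had higher values. ARP4, which fell, and ARP7, with higher values, each held a run of A. TATAAA stood in the windows of ARP8 and ARP9, and over all 250 bases before the start codon also at ARP5 and ARP7. Over the whole 250 bases before the start codon, the Abf1 letters were found at 14 of 41 members (34.1%), against 12.9% of 6001 protein-coding genes. Reb1 letters were found at 6 members (14.6%, against 7.03% of all), Rsc3 letters at 6 (14.6%, against 9.83%), and Pho4 letters at 4 (9.76%, against 2.73%). TATAAA was found at 16 members (39.0%, against 43.4%) and the A tract at 18 (43.9%, against 47.9%). Motifs may overlap one another, and these matches describe the letters only.

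SWI/SNF, the complex in which remodelling was first described in yeast, held no called gene among 9, and 1 gene, ARP9, had an unadjusted p under 0.05 in limma. Its median log2 fold change was -0.02. SNF2, the catalytic subunit gene, had 13.8 and 17.3 RPKM in T4V libraries, against 15.2 and 15.0 RPKM in WT libraries. It was the lowest of the 41 members, and its T4V libraries lay on either side of the WT libraries. SWI1, which encodes a DNA-binding ARID protein, had 24.9 and 27.1 RPKM in T4V libraries, both below the 30.2 and 30.8 RPKM in WT libraries (log2 fold change -0.22, limma adjusted p = 0.222).

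SWI3, a scaffold subunit gene, had 63.4 and 70.4 RPKM in T4V libraries, against 66.6 and 68.7 RPKM in WT libraries. SNF5, whose product contacts activators and the nucleosome, had 19.3 and 19.3 RPKM in T4V libraries, against 17.1 and 20.1 RPKM in WT libraries. SNF12 had 35.9 and 30.2 RPKM in T4V libraries, against 37.0 and 30.9 RPKM in WT libraries. These 3 genes overlapped between genotypes, as did SNF11, with a log2 fold change of 0.09. SNF6 had 48.0 and 44.4 RPKM in T4V libraries, both below the 53.9 and 50.7 RPKM in WT libraries (log2 fold change -0.17, limma adjusted p = 0.260).

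RSC, the abundant and essential relative of SWI/SNF, held no called gene among 11 by limma, and 1 (STH1) had an unadjusted p under 0.05. All 11 genes listed under RSC lay below the median of all genes tested, and their own median was -0.08. A negative log2 fold change was found for 8 of 11, against 40.6% of all genes. In 5 of 11 both T4V libraries lay below both WT libraries, against 23.4% of all genes, and in none the reverse, against 38.6%. ARP7 and ARP9, which also belong to RSC, are left out of these counts, being placed under SWI/SNF. ARP7 was higher in both T4V libraries (log2 fold change 0.13), and ARP9 was lower in both (-0.22). With so few genes these counts are a description only. STH1, the catalytic subunit gene, had 94.2 and 97.7 RPKM in T4V libraries, against 110.4 and 108 RPKM in WT libraries. Its log2 fold change was -0.18 ± 0.08 (SE), with an unadjusted p of 0.0475 and a limma adjusted p of 0.145, so the drop did not pass over all genes, while voom gave an adjusted p of 0.0407.

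RSC8, the scaffold subunit gene related to SWI3, had 90.6 and 82.9 RPKM in T4V libraries, against 99.7 and 98.2 RPKM in WT libraries, the nearest to STH1 in pattern. SFH1, related to SNF5, had 79.1 and 80.6 RPKM in T4V libraries, against 83.3 and 81.2 RPKM in WT libraries, so the genotypes only just failed to overlap. RSC6, related to SNF12 and the most abundant RSC gene, had 198 and 196 RPKM in T4V libraries, against 207 and 179.6 RPKM in WT libraries.

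RSC1 and RSC2 encode alternative bromodomain subunits that mark different forms of RSC. RSC1 had 18.4 and 19.9 RPKM in T4V libraries, against 21.3 and 19.2 RPKM in WT libraries. RSC2 had 36.8 and 38.8 RPKM in T4V libraries, against 40.1 and 44.0 RPKM in WT libraries, and overlaps YLR358C on the opposite strand. RSC2 was thus lower in both T4V libraries, while RSC1 overlapped between genotypes.

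RSC3 and RSC30 encode related zinc cluster proteins that bind DNA. RSC3 had 44.6 and 40.3 RPKM in T4V libraries, against 39.3 and 43.9 RPKM in WT libraries. RSC30, the lowest RSC gene, had 15.7 and 13.5 RPKM in T4V libraries, against 17.2 and 17.5 RPKM in WT libraries, and its log2 fold change was -0.24 (adjusted p = 0.316 by limma). RSC4, which encodes a reader of acetylated histone H3, had the highest log2 fold change of the complex, 0.07, and RSC9 and RSC58 had -0.07 and -0.10. These last genes overlapped between genotypes.

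The ISWI remodelers are built on Isw1, which works with Ioc3 or with Ioc2 and Ioc4, and on Isw2, which works with Itc1. None of the 6 genes was called by limma, 1 of them (IOC3) had an unadjusted p under 0.05, and their median log2 fold change was -0.05. ISW1 had 52.1 and 46.7 RPKM in T4V libraries, against 51.6 and 58.4 RPKM in WT libraries. ISW2 had 32.7 and 33.0 RPKM in T4V libraries, against 29.8 and 33.2 RPKM in WT libraries. Both ATPase genes overlapped between genotypes.

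IOC3, the partner that defines the Isw1a form, had the lowest log2 fold change of all 41 members. It had 31.4 and 29.1 RPKM in T4V libraries, against 36.5 and 41.4 RPKM in WT libraries, from 249 and 293 reads in T4V and 351 and 358 in WT. The log2 fold change was -0.35 ± 0.12 (SE) with a limma adjusted p of 0.0816, and voom gave an adjusted p of 0.00968. IOC2 and IOC4, the partners in the Isw1b form, did not share that difference: IOC2 had 55.6 and 63.4 RPKM in T4V libraries, against 59.2 and 50.4 RPKM in WT libraries, and the log2 fold change of IOC4 was 0.04. Whether IOC3 differs from IOC2 and IOC4 in its response was not tested. ITC1 had 21.4 and 22.8 RPKM in T4V libraries, against 23.9 and 25.6 RPKM in WT libraries, and its log2 fold change was -0.16.

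CHD1, whose product is a spacing enzyme with chromodomains that works without the other subunits listed here, had 29.4 and 30.3 RPKM in T4V libraries, against 34.4 and 36.8 RPKM in WT libraries. The genotypes did not overlap, and the log2 fold change was -0.25 with a 95% interval of -0.50 to 0.01. The limma adjusted p was 0.16, and voom gave an adjusted p of 0.0309. Among the 6 catalytic subunit genes, CHD1 and STH1 were lower in both T4V libraries, and INO80, SNF2, ISW1 and ISW2 overlapped. Of all genes tested, 23.4% were lower in both T4V libraries, so this count is a description only.

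Set side by side, RSC genes stood above those of the other complexes in level. The median RPKM of RSC genes was 79.1 and 80.6 in T4V libraries, against 83.3 and 81.2 in WT libraries. That of INO80 genes was 50.4 and 57.8 RPKM in T4V libraries, against 50.9 and 52.1 RPKM in WT libraries, and that of SWI/SNF genes 48.0 and 44.4 RPKM in T4V, against 53.9 and 50.7 RPKM in WT. ISWI genes stood at 41.5 and 38.7 RPKM in T4V libraries, against 41 and 43.8 RPKM in WT libraries. RSC therefore had the highest median in every library and CHD1 the lowest level, while INO80 and SWI/SNF changed places between WT libraries. On the log2(RPKM + 1) scale the median of INO80 genes lay 0.07 and 0.37 above that of SWI/SNF genes in T4V libraries, against -0.08 and 0.04 in WT libraries. That distance was thus 0.24 larger in T4V, with genotypes that did not overlap. The distance of SWI/SNF from RSC was -0.71 and -0.85 in T4V libraries, against -0.62 and -0.67 in WT libraries, also apart. CHD1 lay 0.45 and 0.33 below the ISWI median in T4V libraries, against 0.24 and 0.25 in WT libraries. Of the 10 pairs of complexes 5 stood apart in this way and 5 overlapped, with no test of these distances. Those apart included INO80, RSC and ISWI each set against CHD1, a single gene that was not called. The pairs share complexes, so they are not separate results. Separation was common: over all genes tested, both T4V libraries lay above both WT libraries in 38.6%, and below them in 23.4%.

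Summed over its 11 genes, RSC had 799 and 790.1 RPKM in T4V libraries, against 842 and 829 RPKM in WT libraries, so the genotypes did not overlap. The sum for INO80 was 1452 and 1437 RPKM in T4V, against 1441 and 1550.0 RPKM in WT, and for SWI/SNF 483 and 494 RPKM in T4V, against 491 and 487 RPKM in WT, and both overlapped. With TAF14 counted in as well, the SWI/SNF sum was 792 and 819 RPKM in T4V, against 803 and 794 RPKM in WT. ISWI genes summed to 243 and 239 RPKM in T4V libraries, against 246 and 255 RPKM in WT libraries, just apart. The median log2 fold changes of the complexes, 0.00, -0.02, -0.08, -0.05 and -0.25 for INO80, SWI/SNF, RSC, ISWI and CHD1, are descriptions of these libraries, and the difference between complexes was not tested.

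**Figure D3:**
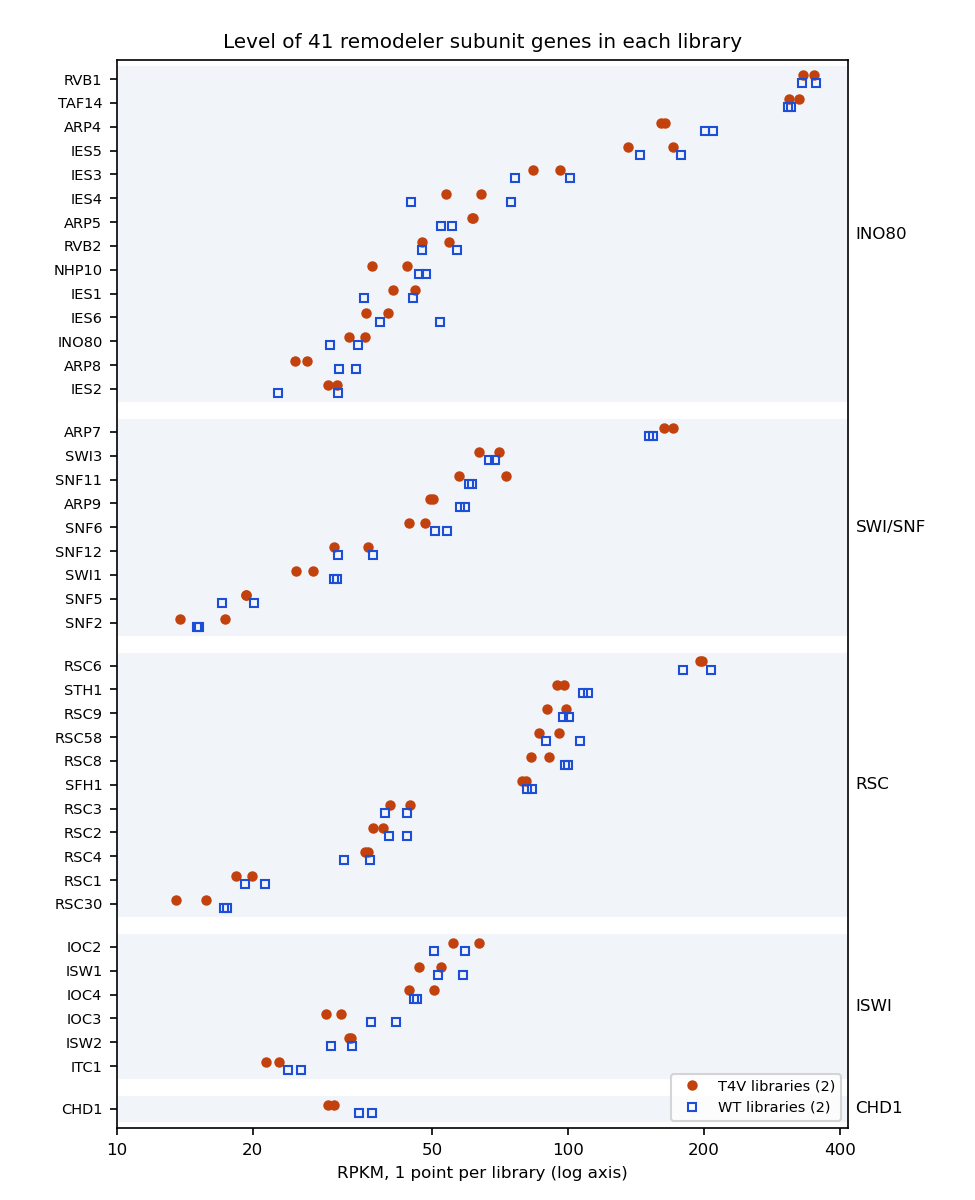
RPKM (horizontal log axis) of the 41 subunit genes in each library, grouped by complex and ordered by level, with filled circles for T4V and open squares for WT. Genes span 15.3 (SNF2) to 341 (RVB1) mean RPKM, and the genotypes lie close together beside that span.

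Related subunits of SWI/SNF and RSC kept unequal levels in both genotypes. SNF2 stood at 0.146 and 0.177 times the level of STH1 in T4V libraries, against 0.138 and 0.140 times in WT libraries. SNF5 stood at 0.244 and 0.24 times SFH1 in T4V, against 0.205 and 0.248 times in WT, and SNF12 at 0.181 and 0.154 times RSC6 in T4V, against 0.179 and 0.172 times in WT. SWI3 was nearer to its RSC relative, at 0.699 and 0.849 times RSC8 in T4V, against 0.668 and 0.699 times in WT. The RSC gene was thus the higher one in each of these 4 pairs and in every library.

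Within complexes, the balance of ARP7 to ARP9 differed most between genotypes among 9 pairs examined. The products of these genes bind each other, and ARP7 was 3.41 and 3.30 times as high as ARP9 in T4V libraries, against 2.68 and 2.56 times in WT libraries. The log2 ratio was 0.36 higher in T4V, beside an SD between libraries of 0.03 in T4V and 0.05 in WT. The ratio of RSC3 to RSC30 was 2.84 and 2.97 in T4V libraries, against 2.28 and 2.50 in WT libraries, also apart. ISW1 was 1.59 and 1.41 times ISW2 in T4V libraries, against 1.73 and 1.76 times in WT libraries. For SNF2 over STH1 and SWI3 over RSC8 the T4V ratios also lay above those of WT, although by little in library A.

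The remaining ratios overlapped. RSC1 stood at 0.499 and 0.513 times RSC2 in T4V libraries, against 0.530 and 0.438 times in WT libraries. RVB1 was 7.40 and 6.07 times RVB2 in T4V libraries, against 5.83 and 7.49 times in WT libraries, although their products join in equal numbers in one ring. With 2 libraries per genotype an exact 2-sided permutation test of a ratio cannot go below p = 0.333, and these 9 ratios are given without a test.

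**Figure D4:**
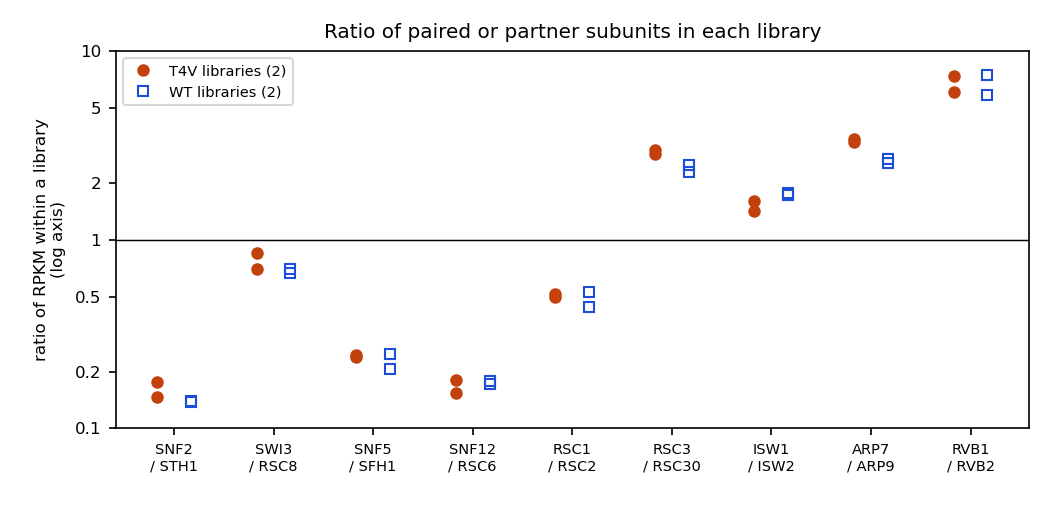
Ratio of RPKM between paired or partner subunits within each library (vertical log axis), with filled circles for T4V and open squares for WT. Ratios keep their side of 1 in every library, and those of ARP7 to ARP9 are higher in both T4V libraries, at 3.41 and 3.30, than in both WT libraries, at 2.68 and 2.56.

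Levels of the members spanned 22.3-fold. Behind RVB1 and TAF14 came RSC6, ARP4, ARP7 and IES5, with means over all libraries of 195, 184, 159.7 and 157 RPKM. At the low end, SNF2, RSC30, SNF5 and RSC1 stood at 15.3, 16.0, 19.0 and 19.7 RPKM, and SNF2 lay at the 19.8th percentile of all genes tested. Catalytic subunits were not the most abundant of their complexes in RNA, except that CHD1 stands alone. STH1, at 102 RPKM, was the highest of the catalytic subunit genes. Longer genes had lower levels across the 41 members (Pearson r = -0.46, Spearman rho = -0.54, gene lengths from 351 to 5112 bases). That relation is a description across genes of the same 4 libraries, and fragment size and length scaling enter both measures.

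The genes are spread over 15 chromosomes. The annotation gave the term of the own complex to all 14, 9 and 11 genes of INO80, SWI/SNF and RSC, and an Isw1 term to 4 of 6 ISWI genes. ISW2 and ITC1 carried no complex term there, and CHD1 carried terms of SAGA and SLIK. Of the members, 23 are transcribed away from their upstream neighbour. Of the 40 upstream neighbours tested, 2 were called, against 17.9% of all genes, namely MSC1 beside RSC9 (log2 fold change 0.77) and GCG1 beside CHD1 (log2 fold change -0.54), while neither member beside them was.

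Further subunits of the same complexes, not among the 41 genes, held 2 called genes of 8, both lower. Of all genes tested, 17.9% were called and 6.25% were called lower. The list had a median log2 fold change of 0.01, with 4 genes positive and 4 negative. LDB7, a small RSC subunit gene, had 25.2 and 30.3 RPKM in T4V libraries, against 41.2 and 39.8 RPKM in WT libraries, and its log2 fold change was -0.53 (adjusted p = 0.0287 by limma). It rested on 46 and 70 reads in T4V and 91 and 79 in WT. DPB4, which encodes a histone-fold protein shared by the Isw2 complex and DNA polymerase epsilon, had 72.1 and 81.0 RPKM in T4V libraries, against 104 and 101 RPKM in WT libraries, and its log2 fold change was -0.42 (adjusted p = 0.0218 by limma). RTT102, SWP82, HTL1 and DLS1 did not pass the test, at 0.19, 0.15, 0.25 and -0.10, nor did NPL6, at -0.12.

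Other chromatin lists held from 0 to 2 called genes each, beside 17.9% of all genes. Of 11 other Snf2-family ATPase genes, MOT1, which encodes a remover of TATA-binding protein, fell, with a log2 fold change of -0.44, none rose, and the list median was 0.16. Of 11 genes for SWR1 and Htz1, YAF9 fell, with -0.27, and HTZ1 itself had 102 and 92.1 RPKM in T4V libraries, against 108 and 95.9 RPKM in WT libraries. Of 14 SAGA genes, SUS1 rose, with 0.27, and GCN5 fell, with -0.29. Of 24 Mediator genes MED2 fell, with -0.35, and of 15 histone chaperone genes CHZ1 and VPS75 fell, with -0.32 and -0.38. Among 9 histone genes limma called 0, with 2 at an unadjusted p under 0.05. Together with the further subunits and the targets below, 15 of the 104 genes tested on these lists were called, 6 higher and 9 lower. Of these calls, 5 of the higher and 1 of the lower were targets. That list was written with the rises of several targets known, so the pooled share cannot be set against that of all genes. Fewer of the 104 genes were called when either T4V library was left out.

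Several known targets of remodelers differed between genotypes by more than any of the 41 members. Of 14 such genes listed, 13 passed the filter on low values, 5 rose and 1 fell, and their median log2 fold change was 0.48, against 0.07 for all genes and -0.04 for the 41 members. PHO84, a phosphate transporter gene whose induction uses INO80 and SWI/SNF, had 557 and 526 RPKM in T4V libraries, against 0.557 and 0.155 RPKM in WT libraries, where it had 4 and 1 reads. PHO5 and PHO8, phosphatase genes long used to study promoter nucleosomes, rose by 3.78 and 1.15 on the log2 scale. SER3, a serine synthesis gene repressed with the help of SWI/SNF, rose by 0.66, and MET16, of sulfate assimilation, by 0.48.

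INO1, the gene for which INO80 is named and which needs SWI/SNF and INO80 for its induction, fell. It had 36.5 and 36.6 RPKM in T4V libraries, against 61.7 and 63.2 RPKM in WT libraries, and its log2 fold change was -0.76 (adjusted p = 0.00349 by limma). HO, a mating-type switching gene that depends on SWI/SNF, had 13.4 and 11.7 RPKM in T4V libraries, against 17.7 and 19.0 RPKM in WT libraries, and did not pass the test (limma adjusted p = 0.0605). SUC2, GAL1, RNR3 and REC104 did not pass either, at -0.04, -0.18, -0.03 and 0.02, nor did the meiotic genes SPO13 and HOP1, at 1.29 and 0.83. The rises of several targets were known when the list was written, so the count is not independent evidence.

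**Figure D5:**
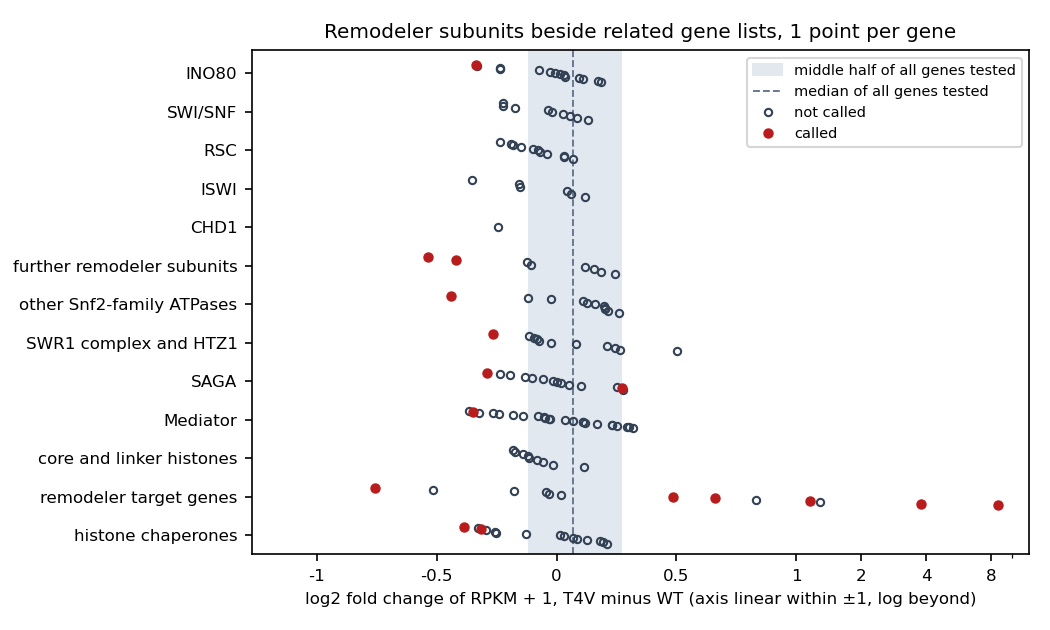
Log2 fold change of RPKM + 1 (T4V minus WT, horizontal axis, linear within 1 and logarithmic beyond) of each gene of the remodeler complexes and of related lists. Filled red points are called, the grey band spans the quartiles of all genes tested, and the remodeler target genes range from -0.76 to 8.66.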

How the data were processed

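The authors deposited RPKM values for 4 poly(A) RNA libraries, and the submitters' processing notes name Bowtie2 and sacCer3. No source used here gives the counting program, the annotation or the strand setting. The file's column names give the genotype and end in A or B, which names the libraries here and is tied to no replicate number in the labels.

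Each RPKM was turned back into reads by its gene's exonic length and an estimated library size. Of genes under 300 reads, 99.8% to 99.9% lay within 0.1 of a whole number in each library, and 1 read in 1 kb was worth 0.298 and 0.235 RPKM in T4V and 0.246 and 0.274 in WT. Gene models came from RefSeq R64, the assembly behind sacCer3, to which 6048 of 7126 genes matched by systematic name.

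The test was limma on log2(RPKM + 1), 2-sided, with a variance trend, without further scaling, on genes that reached 1 RPKM in 2 or more libraries. P-values were adjusted over all 5935 genes, and fold changes, which are understated for low genes, are T4V minus WT. On 10 simulated tables of this comparison, each with 200 changed genes among about 5580 tested, 7.00% of 1.25-fold, 55.6% of 1.5-fold, 89.0% of 2-fold and 99.0% of 4-fold changes were recovered, and 8.24% of calls were false. The tools were limma 3.58.1 in R 4.3.3, and matplotlib 3.10.9, numpy 2.4.6 and pandas 2.3.3 in Python 3.11.15.

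The members and lists were chosen with earlier results of these data known. Values per library were given for called members, catalytic subunits, paired subunits and the extremes of each complex in level and change, and for called genes of other lists. The actin-related genes were brought together after their values were seen. Alternatives changed the pseudocount (0.1), the filter (none, or RPKM of at least 10), the scaling, the variance model and the threshold, used voom on recovered reads, and left out each library. With a library left out the filter was applied to the remaining 3, and, in fits added after the data were seen, the 5935 genes were kept as they were. A fit with the column letter as a block was also added then. In the fits with a library left out, the genotype with 1 library is assumed to vary like the other.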

Additional observations from a re-analysis of the deposited data

How the results depend on the processing

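The column names end in A or B in both genotypes, and nothing states that a letter pairs libraries: over genes, the A minus B differences of T4V and WT had a correlation of -0.01 (Pearson). With the letter as a replicate block, chosen after seeing the data, limma called 1137 genes, 1 member (ARP4, adjusted p = 0.0242) and 12 genes of the other lists. In simulated tables of this depth 7% of the smallest changes made were recovered, so small shifts of single subunits cannot be judged. The members called, 1 as reported, were 0 without the variance trend and at an adjusted p under 0.01, 3 at an adjusted p under 0.1 and 5 with voom, and ranged from 0 to 1 when a library was left out (0 without T4V library A, T4V library B or WT library B). Over all genes, 1063 calls became 399 without the variance trend and 364 at an adjusted p under 0.01, and 16 to 973 when a library was left out. These counts depend on the filter: applied again to 3 libraries it gave 677, 666, 906 and 973 calls without T4V A, T4V B, WT A and WT B, while the unchanged set of 5935 genes, an alternative chosen after seeing the data, gave 16, 27, 711 and 746. On the other lists 15 calls became 5 without the trend and 2 to 12 when a library was left out, with 4, 7, 8 and 12 under the filter applied again and 2, 2, 6 and 5 on the unchanged set, in the same order.

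Some median log2 fold changes moved by more than the spread between libraries. After quantile normalization SWI/SNF stood at -0.10, and RSC at -0.16, and CHD1 at -0.32. After median-of-ratios scaling RSC stood at -0.14 and CHD1 at -0.31, and after the rescaled total at -0.13 and -0.30. As reported, SWI/SNF, RSC and CHD1 stood at -0.02, -0.08 and -0.25. The median of all genes tested moved down as well under these scalings, from 0.07 as reported. It was 0.01 after median-of-ratios scaling, -0.02 after quantile normalization and 0.02 after the rescaled total. Leaving out a library gave INO80 -0.11 to 0.071, SWI/SNF -0.092 to 0.057 and RSC -0.13 to -0.043, with some moves past that spread. It gave ISWI -0.11 to -0.02 and CHD1 -0.29 to -0.20, within it. No called member changed sign under any of the 18 alternatives, while 21 members that were not called did so under at least 1, each with a log2 fold change no larger than 0.17 in size as reported. The cause of these changes was not tested.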
